A study of Mus musculus with 7 samples.

Results

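Tesc, Tubb6 and Plk1 are 3 of the 769 gene models in the authors' deposited comparison of young and old megakaryocyte progenitors, and all 3 had a lower mean in old. They were chosen by symbol as genes of megakaryocyte differentiation, microtubules and mitosis, with their group means, ratio and standard error (SE) in view. Their values are therefore given as a description, and the adjusted p-values printed for them come from the same comparison that put them in the table. Each symbol has 1 row there, under the identifiers kgCluster22327 (Tesc), kgCluster13829 (Tubb6) and kgCluster27253 (Plk1).

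The cells were sorted from mouse bone marrow as lineage-negative, cKit-positive, Sca1-negative, CD150-positive and CD41-positive, the surface phenotype of megakaryocyte progenitors, and were profiled by RNA-seq. The young group has 3 libraries from mice aged 3 months, and the old group has 4 libraries from mice aged 18 to 20 months, an age that another label gives as 20 months. Mice of both ages came from a cross of Flt3-cre to mTmG, a reporter in which a cell and its descendants switch from Tomato to GFP fluorescence after Cre has acted, and the series' design text calls them WT. The labelled strain is C57BL/6, except for 1 old library labelled C57BL/7. Tomato-positive and GFP-positive cells were collected as separate fractions. Which libraries came from which fraction is not stated, the young titles carry 1 prefix and the old titles 2, and age and sorted fraction therefore cannot be told apart. Of 10 genes that mark this cell type, only Slamf1, which encodes CD150, is in the authors' deposited table. Those 10 genes therefore give little check of the labelled cell type. The listed markers of other cell types all had higher old means, as given below.

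The deposited values are group means of normalized counts, with no value for a single library, so the spread between libraries enters only through the authors' SE and overlap between the groups cannot be seen. No label says that the libraries came from separate mice, and the SE may measure technical spread. The depth of each library is unknown. A gene model is called lower or higher here when the authors' adjusted p is under 0.05. Calls in either direction made up 4.13% of the 11778 gene models in their adjustment, lower calls 1.57% (185) and higher calls 2.56% (302), in the authors' deposited table. The table stops at an adjusted p of 0.1, which 6.53% of the gene models reached (3.67% as higher and 2.86% as lower), and a gene outside it has no value here.

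A megakaryocyte progenitor divides as an ordinary diploid cell before it matures. Maturing megakaryocytes then become polyploid by endomitosis, in which the cell enters mitosis, builds a spindle and stops short of dividing, and they later extend long microtubule-filled projections that release platelets. Tescalcin, the product of Tesc, is a calcium-binding EF-hand protein that inhibits calcineurin and has been described in cultured cells as needed for megakaryocytic differentiation upstream of Ets family factors. Tubulin beta 6, the product of Tubb6, is one of several beta tubulins that pair with alpha tubulins to form microtubules, and it is distinct from the platelet beta tubulin encoded by Tubb1. Polo-like kinase 1, the product of Plk1, drives mitotic entry, centrosome maturation, kinetochore attachment and cytokinesis.

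Tesc had the largest difference of the 3. Its mean was 133 normalized counts in young and 19.7 in old in the authors' deposited table, so that the old level was 14.8% of the young one, or 6.77-fold lower. In the authors' deposited table the difference of old from young was -2.80 on the log2 scale (SE 0.79, DESeq adjusted p = 0.0174), with a 95% interval of -4.35 to -1.26 computed from that SE. Among the 185 lower calls Tesc had both the largest fall and the largest SE, and its rank by p was 75. The size of the difference is thus known only loosely.

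Tubb6 combined a smaller difference than Tesc with a much smaller SE, though its SE was still the 20th largest of the 185 lower calls. Its mean was 390 normalized counts in young and 135 in old in the authors' deposited table, 2.89-fold lower, at 34.6% of the young level. In the authors' deposited table the log2 fold change was -1.52 (SE 0.28, DESeq adjusted p = 3.09e-05), with a 95% interval of -2.08 to -0.97. Tubb6 ranked second by fold change and sixth by p among the 185 lower calls, and 175th by young mean.

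Plk1 was the most abundant of the 3 and differed least. Its mean was 7416 normalized counts in young and 4207 in old in the authors' deposited table, 1.76-fold lower, at 56.7% of the young level. In the authors' deposited table the log2 fold change was -0.82 (SE 0.22, DESeq adjusted p = 0.0129), with a 95% interval of -1.25 to -0.38. Plk1 ranked 51st by fold change and 56th by p among the 185 lower calls, while its young mean was the 20th highest of them. The intervals of the 3 genes overlap in places (Tesc with Tubb6, and Tubb6 with Plk1), and differences between the genes were not tested.

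**Figure D1:**
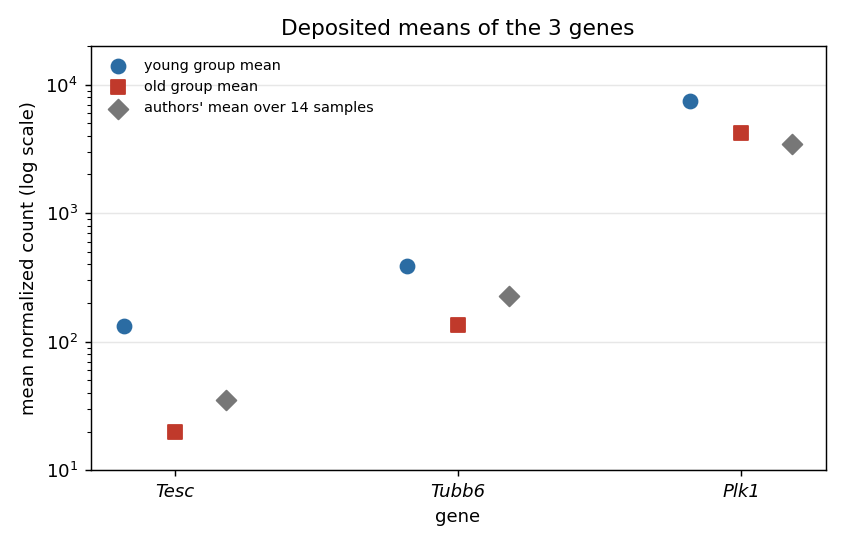
Mean normalized count (log axis) of Tesc, Tubb6 and Plk1 in the young group (circles), the old group (squares) and over the authors' 14 samples (diamonds), with no error bars because the table holds none for means. The old mean lies below the young mean for all 3 genes, by 6.77-fold for Tesc, 2.89-fold for Tubb6 and 1.76-fold for Plk1.

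Levels can be compared between genes only per length. The GENCODE M21 main transcripts (build GRCm38, the mm10 of the submitters' processing notes) are 1031 bases long for Tesc, 1758 for Tubb6 and 2199 for Plk1. Per kilobase, the young means were 129 normalized counts for Tesc, 222 for Tubb6 and 3372 for Plk1, and the old means were 19.1, 76.6 and 1913. The order of the genes was the same at both ages, with Plk1 far above the others. The ratio of Tubb6 to Tesc was 1.71 in young and 4.01 in old, which restates their fold changes. The authors' counts belong to their own gene models, whose lengths are not given, so the values per kilobase are approximate.

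Tesc lies on the plus strand of chromosome 5, from 118027743 to 118061878, with 8 exons. Tubb6 lies on the plus strand of chromosome 18, from 67390717 to 67402749, with 4 exons. Plk1 lies on the plus strand of chromosome 7, from 122159439 to 122169873, with 10 exons. No 50-base stretch of the main Tesc or Tubb6 transcript occurs in an annotated transcript of another gene on either strand, so copies of other tubulin genes share no such stretch with Tubb6. Of the Plk1 stretches, 10.9% recur elsewhere: 6.84% in Plk-ps1, a processed pseudogene, and 5.07% in Gm44985, a transcript on the opposite strand whose exons overlap Plk1. The sources used here do not say how the authors' counting assigned reads there or whether it used strand. How far this bears on the Plk1 level is therefore unknown, and the share of 10.9% does not measure it.

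In the authors' deposited table the log2 fold changes of the 185 lower calls had quartiles of -0.83 and -0.57 around a median of -0.72, and their median SE was 0.19. Plk1, at -0.82, sits inside that range near its lower quartile. Tubb6 and Tesc lie outside it, as 2 of the 16 lower calls with a fall of at least 1 on the log2 scale. Of the 3 other lower calls with a young mean within 2 times that of Tesc, none fell further (range -1.24 to -0.72) in the authors' deposited table. Of the 22 around Tubb6, none fell further either, though one AI506816 gene model, named after its values were seen, came close in the authors' deposited table at -1.51 (SE 0.40). Of the 56 around Plk1, 10 fell further. All of these neighbours were themselves selected by the authors' adjusted p.

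**Figure D2:**
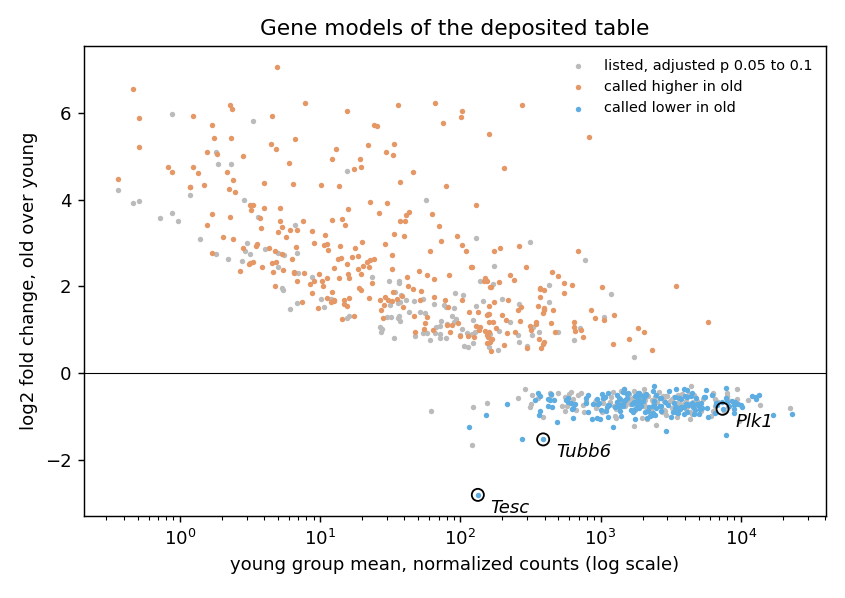
Log2 fold change of old over young against the young group mean (log axis) for the 757 listed gene models with both means above 0, coloured by call, with the 3 genes circled. Tesc (-2.80) and Tubb6 (-1.52) lie below the band of lower calls, whose quartiles are -0.83 and -0.57, while Plk1 (-0.82) lies within it at a high young mean.

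The gene models whose pair of group means was most like that of each gene were found by Euclidean distance between the log2 young and log2 old means, which rests on 2 group means only. Plk1 had close neighbours: Gars, a glycyl-tRNA synthetase, at a distance of 0.04 log2 units, Tomm20, a receptor of the mitochondrial import pore, at 0.11, and Atad3a, a mitochondrial membrane ATPase, at 0.13. Atad3a was called lower (-0.72, SE 0.19, adjusted p = 0.0113), and Gars and Tomm20 were listed at adjusted p = 0.0795 and 0.0785, in the authors' deposited table. The nearest to Tubb6 were Chchd10, a mitochondrial intermembrane space protein, at 0.48, then Gchfr at 0.52 and the Mediator subunit gene Med29 at 0.54. The nearest to Tesc were farther still, with Grap2, an adaptor protein of haematopoietic cells, at 1.00, Ggct, a gamma-glutamylcyclotransferase, at 1.35 and Gt(ROSA)26Sor at 1.37. Grap2 had means of 121 in young and 39.0 in old in the authors' deposited table and did not pass (log2 fold change -1.66, SE 0.60, adjusted p = 0.0917). No other listed gene model thus came close to the values of Tesc. Only listed gene models, at an adjusted p under 0.1, could be neighbours. Only 3 other lower calls had a young mean within 2 times that of Tesc. The distances around Tesc are therefore partly set by where the table stops.

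A further column gives each gene's mean over 14 samples, of which at most 7 are in this series. Over those samples Tesc averaged 35.4, Tubb6 228 and Plk1 3445 normalized counts in the authors' deposited table, or 26.5%, 58.5% and 46.5% of their young means. A 14-sample mean below the young mean was general, holding for 183 of the 185 lower calls, with a median of 57.3%. The percentage was the lowest of all 185 for Tesc, the 13th lowest for Plk1 and 109th for Tubb6. The percentage divides by the young mean, and the 14 samples are taken to include libraries of both groups. These ranks are thus a description and not independent of the values that chose the genes. If the young mean rests on 3 libraries and the old mean on 4, the remaining 7 samples averaged 2.40 normalized counts for Tesc, 212 for Tubb6 and 1308 for Plk1. With 2 old libraries behind the old mean, the remaining 9 samples averaged 6.25, 195 and 1952. Under both assumptions Tesc was far lower in the remaining samples than in young progenitors (55.5-fold for 7 samples, 21.4-fold for 9). Plk1 was lower there too (5.67-fold or 3.80-fold), and Tubb6 was higher there than in the old group. These folds use the same young mean, both directly and within the remainder, so they too are a description. They were not computed for the other lower calls. The remainders assume that all libraries behind the group means are among the 14 samples, and the 9 may include old libraries of this series. The sources used here do not say what those other samples are.

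Among the partners of tescalcin and other calcium sensors, 3 of 37 genes were listed, all lower in old, and 2 of them were called, Tesc included, with a median of -0.78 over the 3. Cops4, a subunit of the COP9 signalosome that tescalcin has been described to bind, had means of 4921 in young and 2958 in old in the authors' deposited table and was called lower (log2 fold change -0.74, SE 0.22, adjusted p = 0.0247). Rcan1, a regulator of calcineurin, stood at 123 in young and 72.4 in old in the authors' deposited table and did not pass (log2 fold change -0.78, SE 0.28, adjusted p = 0.0937). The calcineurin subunit genes were not listed. Across all gene models 6.53% were listed and 4.13% called, against 3 of 37 (8.11%) listed here, Tesc itself being one. The listed share is near that over all gene models and Tesc was chosen beforehand, so the count and shared direction say nothing of the group.

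Of 31 megakaryocyte transcription factors 4 were listed (12.9%, against 6.53% of all gene models), 2 higher and 2 lower, and 2 were called, against 4.13% of all gene models. In the authors' deposited table the Ets family members Erg (means 29.3 and 98.9, log2 fold change 1.76, SE 0.41, adjusted p = 0.00265) and Spi1 (means 458 and 1267, log2 fold change 1.47, SE 0.39, adjusted p = 0.0107) rose. Granulocyte and monocyte markers also had higher old means (14 of 17 listed), and whether such cells share in the rise of Spi1 was not tested. Gfi1b, a transcriptional repressor needed in the megakaryocytic and erythroid lineages, had means of 6355 and 3480 (adjusted p = 0.0628), and Cbfb, the partner of Runx1, had 687 and 490 (adjusted p = 0.0716), neither of which passed in the authors' deposited table. Their log2 fold changes were -0.87 (SE 0.29) and -0.49 (SE 0.17) in the authors' deposited table. Fli1, Ets1 and Ets2 were not listed. Of 58 megakaryocyte and platelet genes 3 were listed and 1 was called, or 5.17% listed, near the 6.53% over all gene models, so the count says nothing of the group. All 3 had higher old means. Selp, encoding P-selectin, rose by 2.25 (SE 0.68, adjusted p = 0.0304), while the platelet matrix protein gene Mmrn1 (2.14, SE 0.75, adjusted p = 0.0772) and Slamf1 (1.54, SE 0.55, adjusted p = 0.0856) did not pass, in the authors' deposited table.

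Tubb6 was the only one of 21 tubulin genes listed, so the other alpha, beta and gamma tubulins, Tubb1 among them, have no value to set beside it. Of 57 genes of microtubule assembly and regulation 3 were listed (5.26%, against 6.53% of all gene models) and 2 were called, in opposite directions, which is near the share over all gene models. Mapre1, which encodes the microtubule plus-end protein EB1, had means of 13518 in young and 9570 in old in the authors' deposited table and was called lower (log2 fold change -0.50, SE 0.13, adjusted p = 0.0114). Its relative Mapre3, encoding EB3, was far less abundant and rose in the authors' deposited table from a mean of 3.15 to 17.1 (log2 fold change 2.53, SE 0.77, adjusted p = 0.0326). Camsap2, which protects microtubule minus ends, stood in the authors' deposited table at a mean of 3.04 in young and is listed at 0 in old (adjusted p = 0.0625, not called), so no fold is given.

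Plk1 was likewise the only one of 27 mitotic kinases listed, with no value for Aurka, Aurkb, Cdk1, Bub1 or the other polo-like kinases. None of the 122 genes chosen for the list of mitosis and the spindle was in the table, cyclins B1 and B2, Cdc20 and Mki67 among them, nor was any of the 62 chosen for G1/S and S phase, while over all gene models 6.53% were listed. These lists are not complete, and the table does hold related genes outside them, named here after their values were seen. Haus1, a subunit of the spindle complex augmin (log2 fold change -0.78, SE 0.23, adjusted p = 0.0294), and Nde1, a dynein regulator at centrosomes and kinetochores (log2 fold change -0.52, SE 0.13, adjusted p = 0.00641), were lower in the authors' deposited table. The DNA polymerase subunit genes Pole3 (log2 fold change -0.62, adjusted p = 0.0302) and Pold4 (log2 fold change 0.58, adjusted p = 0.0447) differed in opposite directions in the authors' deposited table. Genes outside the table did not reach an adjusted p of 0.1 or were not in the adjustment, so these counts do not show that the mitotic genes were equal between ages.

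**Figure D3:**
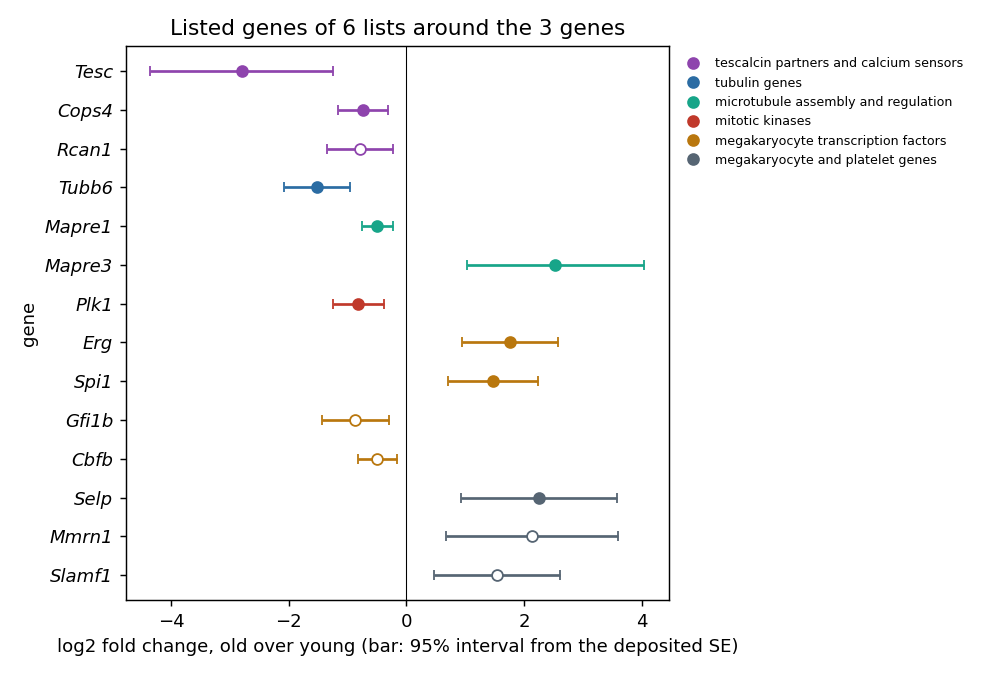
Old over young log2 fold change, drawn with its 95% interval from the deposited SE, for every listed gene of 6 lists with both means above 0, with filled points for calls and open points for gene models at an adjusted p between 0.05 and 0.1. Tesc, Tubb6 and Plk1 lie left of 0, as do the called Cops4 and Mapre1 and the uncalled Rcan1, Gfi1b and Cbfb, while Mapre3, Erg, Spi1 and the 3 megakaryocyte and platelet genes lie right of it.

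The promoters of Tesc and Plk1, from the RefSeq table of build GRCm38.p6, are shown because both genes had lower old means and Plk1 belongs to the genes known to be transcribed late in the cell cycle. Tubb6 had no matching entry. Capitals mark matches to 4 short motifs, searched on both strands. The cell cycle homology region was searched as TTTGAA, a short element near the start of many late cell cycle genes. The CCAAT box, an element common in promoters of genes of dividing cells and bound by the factor NF-Y, was searched by the letters of its name. The Ets family motif was searched as CCGGAAGT. The GC box, a frequent element of promoters rich in these bases and bound by factors of the Sp family, was searched as GGGCGG. No match overlapped another. The 250 bases before each annotated start, at chr5:118027493-118027742 and chr7:122159185-122159434, both on the plus strand, and a stretch of 24 bases just after the start of Plk1 at chr7:122159456-122159479, read 5′ to 3′:
Tesc: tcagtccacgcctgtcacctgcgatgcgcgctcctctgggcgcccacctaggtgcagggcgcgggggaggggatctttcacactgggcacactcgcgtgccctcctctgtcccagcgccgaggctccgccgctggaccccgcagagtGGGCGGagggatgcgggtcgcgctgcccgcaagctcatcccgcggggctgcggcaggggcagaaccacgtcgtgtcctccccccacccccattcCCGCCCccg
Plk1: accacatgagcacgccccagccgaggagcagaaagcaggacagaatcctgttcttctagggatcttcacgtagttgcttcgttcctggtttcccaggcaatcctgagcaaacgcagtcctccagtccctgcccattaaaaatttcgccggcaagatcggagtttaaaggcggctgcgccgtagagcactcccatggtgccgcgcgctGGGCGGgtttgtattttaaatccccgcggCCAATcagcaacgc
Plk1 after the start: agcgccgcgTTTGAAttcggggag

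The Plk1 window holds a GC box beginning at position -43 from the annotated start, a CCAAT box at -14 and a cell cycle homology region at 31, while the Tesc window holds a GC box on each strand, at -103 and -9. Over all 32851 promoter windows of 300 bases, 35.7% held the GC box, 37.4% the CCAAT box, 17.9% the cell cycle homology region and 3.89% the Ets motif, which was in neither gene's window. Of the 176 windows of lower-called genes 67.6% held the GC box, 46.6% the CCAAT box, 15.9% the cell cycle homology region and 14.8% the Ets motif. Of the 260 windows of higher-called genes the shares were 47.7%, 35.0%, 13.5% and 1.54%. Those windows cover 142 lower-called and 208 higher-called genes, so some calls had no window and some genes several. The shares are thus over windows and not over genes. The set of all windows includes genes of every kind, expressed or not. The lower and higher calls also differ in level, with median young means of 2195 and 29.1 normalized counts. The motif shares were not compared at like level, so whether they follow level was not tested. In the 250 bases shown, G and C made up 73.2% for Tesc and 56.4% for Plk1, against a median of 52.4% over all windows. These matches are letters in a window and say nothing of a factor's binding.

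Markers of other cell types differed between the groups that the 3 genes were compared in. Of 17 granulocyte and monocyte markers 14 were listed (82.4%, against 6.53% of all gene models), all higher in old. Of these, 13 were called, while 2.56% of all gene models were called higher. The summed mean of the 14 listed markers was 5462 normalized counts in young and 94433 in old in the authors' deposited table. In the authors' deposited table the smallest adjusted p-values of these belonged to Csf3r, Csf1r and Retnlg, with log2 fold changes of 3.28 (SE 0.58), 3.37 (SE 0.71) and 7.05 (SE 1.56). The largest old means in the sum were those of Ngp (830 in young and 36140 in old, SE of the log2 fold change 1.38) and Ltf (276 and 19916, SE 1.47). Listed erythroid markers (2 of 8, summed means 977 and 6431), lymphoid markers (2 of 7, 3.26 and 42.4), mast cell, basophil and eosinophil markers (4 of 7, 27.2 and 1398) and stroma and endothelium markers (2 of 7, 36.6 and 458) were also all called higher in the authors' deposited table. These last lists hold only 7 or 8 genes each, so their shares rest on few genes. Of the listed markers only Prg3 was at 0, in young. The part of these in the lower means of Tesc, Tubb6 and Plk1 was not tested, and in bulk samples fewer cells that express a gene and less of its RNA per cell cannot be told apart.

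The calls also depend on the scaling between the groups, to which the 3 genes respond unequally. As deposited, 62.0% of all calls were higher. With every log2 fold change raised by 0.2, 95.1% of the calls were higher, and with every one lowered by 0.2, 37.0% were. Only listed gene models could be called after a shift, at most 432 as higher and 337 as lower, so these shares are partly set by where the table stops. At +0.2 only 21 of the 185 lower calls were left. Tubb6 and Tesc were among them, and Plk1, at -0.62, was not. At +0.4 4 were left, with Tubb6 among them, while Tesc at -2.40 and Plk1 at -0.42 no longer passed.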

How the data were processed

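RNA-seq values of sorted megakaryocyte progenitors from 3 young and 4 old libraries were analysed. The submitters' processing notes name Bowtie2, STAR, DESeq and the build mm10 without versions, and the sources used here do not say how reads were counted. The authors deposited 1 table of 769 gene models. Per the file headers it holds mean normalized counts (a scaled signal) over 14 samples and per group, the log2 fold change, its standard error, the Wald score, a p-value and its adjusted value. The old column's name matches no single title and was read as the old group, and the 14-sample mean allows at most 4.08 libraries behind it. The deposited log2 fold change was within 0.1 of the log2 ratio of the group means for 98.5% of 757 gene models. The authors' adjustment over 11778 gene models was recovered from the deposited p-values, with a procedure tested on simulated data.

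Intervals are the fold change with the 95% normal range of its SE. Shifted fold changes were called at the largest p the authors called (0.00206). The 3 genes and the gene lists were chosen with earlier results of these data known. Most genes were named by rule: the 3 genes, listed genes of the pathway lists and the 3 nearest gene models to each of the 3 genes. For markers of other cell types, the 3 smallest adjusted p-values of the granulocyte and monocyte list were taken, not those over all marker lists. Other genes given with values, AI506816, Haus1, Nde1, Pole3, Pold4, Ngp, Ltf and Prg3, were named after their values were seen. Python 3.11.15, pandas 2.3.3 and SciPy 1.17.1 were used.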

Additional observations from a re-analysis of the deposited data

How the results depend on the processing

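Tesc, Tubb6 and Plk1 were recomputed as the log2 ratio of the means, with pseudocounts of 1 and 10, with all fold changes shifted by 0.2 and 0.4 either way, and at adjusted p limits of 0.1 and 0.01. None of these could turn a direction, since a pseudocount or a limit cannot change the sign and the shifts are smaller than each difference, so they bear on size and calls only. Tubb6 kept its call at each shift and limit. Tesc did not pass with all fold changes raised by 0.4 (-2.40) or at a limit of 0.01 (-2.80, adjusted p = 0.0174 by the authors' DESeq). Plk1 did not pass when they were raised by 0.2 (-0.62) or 0.4 (-0.42), or at a limit of 0.01 (-0.82, adjusted p = 0.0129 by the authors' DESeq). Higher calls numbered 302 as deposited, 139 at the limit of 0.01, and 197 and 137 with fold changes lowered by 0.2 and 0.4. Lower calls numbered 185 as deposited, 337 at a limit of 0.1, 41 at 0.01 and 16 with a fall of at least 1 on the log2 scale. With fold changes raised by 0.2 and 0.4 there were 21 and 4 lower calls, and with them lowered 336 and 337, the most that the 337 gene models listed as lower allow. Since the table holds group means, leaving out a library, count models and other normalizations were not run, and the depth that limits each value is unknown. No paired analysis was possible because the deposited columns are group means and carry no replicate number.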
